A study of Mus musculus with 6 samples.

Results

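The interferon regulatory factors (IRFs) are a family of transcription factors that share an amino-terminal DNA-binding domain and recognise repeated GAAA elements in the promoters of interferon genes and interferon-stimulated genes (ISGs). Of 8 factors named for this comparison (Irf1, Irf2, Irf3, Irf4, Irf5, Irf7, Irf8 and Irf9), 7 were found by symbol among the 51499 loci of the count table, and Irf8 was not analysed here. RNA sequencing had been carried out on SV40-immortalized mouse embryonic fibroblasts (MEFs) of 2 genotypes, with 3 cultures of each. Floxed cells were immortalized and transduced with Cre recombinase, and clones were then genotyped as WT, with both floxed alleles kept (Yme1l fl/fl), or as Yme1l-/-, with Cre-deleted alleles of the gene for YME1L, a protease of the mitochondrial inner membrane. Because each genotype descends from selected clones, the deletion and other differences between clones cannot be told apart.

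IRF3 is present in most cells and is activated by phosphorylation through TBK1 when DNA is sensed by cGAS and STING. IRF7 is its inducible relative and amplifies the interferon response. IRF9 binds DNA as part of ISGF3, a complex that includes STAT2 and forms after interferon binds its receptor. IRF1 activates genes of antigen presentation, and IRF2 competes with it for the same DNA elements and is known mostly as a repressor. IRF5 acts downstream of MyD88, and IRF4 and IRF8 are best known from lymphocytes and myeloid cells. The study was concerned with inflammatory signalling after loss of YME1L, and the transcripts of these factors are compared here between the genotypes.

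The libraries held between 33180867 and 49351107 counted fragments. Within each genotype, no pair of libraries agreed within counting error (lowest chi-square per degree of freedom 8.54). The targeted gene Yme1l1 (chromosome 2, 23156369 to 23199260) fell to 0.208 of its WT level, from 188.7 ± 5.16 to 39.1 ± 1.34 CPM (fragment counts scaled to library size with TMM factors, mean ± SD, n = 3). Fibroblast transcripts such as Col1a1, Fn1 and Vim were abundant in all libraries. Of 9 tested fibroblast markers, 7 were lower in Yme1l-/- MEFs, against 34.1% of all tested loci. Col1a1 was higher, from 1616 ± 95.3 to 2177 ± 112 CPM (SD, n = 3). Thy1 had at most 6 fragments in a WT library and 0 in each Yme1l-/- library. In bulk RNA, fewer cells that express a gene and less RNA per cell cannot be told apart.

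Of 6 IRF loci with enough fragments to be tested, 4 were higher in Yme1l-/- MEFs (Irf7, Irf1, Irf5 and the locus that holds Irf9), 1 was lower (Irf3) and 1 was not called (Irf2), with calls made by the quasi-likelihood test of edgeR at an adjusted p below 0.05. Calls were frequent in this comparison: 67.7% of the 13867 tested loci were called, 33.6% higher and 34.1% lower. A call with at least 2-fold increase, made for 3 of the 6 IRF loci, was found for 9.10% of tested loci, and none of the 6 was at least 2-fold lower, against 8.63% of tested loci. The 3 WT and 3 Yme1l-/- libraries did not overlap for 5 of the IRF loci (4 higher, 1 lower), against 71.9% of tested loci (35.9% higher, 36.0% lower). The median log2 fold change (Yme1l-/- over WT) was 1.04 for the 6 loci and 0.00 (-0.0041) for all tested loci. Irf4 had 1 fragment in each of 2 WT libraries and 0 in every other library. It was therefore not tested, and a count of 0 allows up to 3 fragments per library, or between 0.0589 and 0.0919 CPM.

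**Figure D1:**
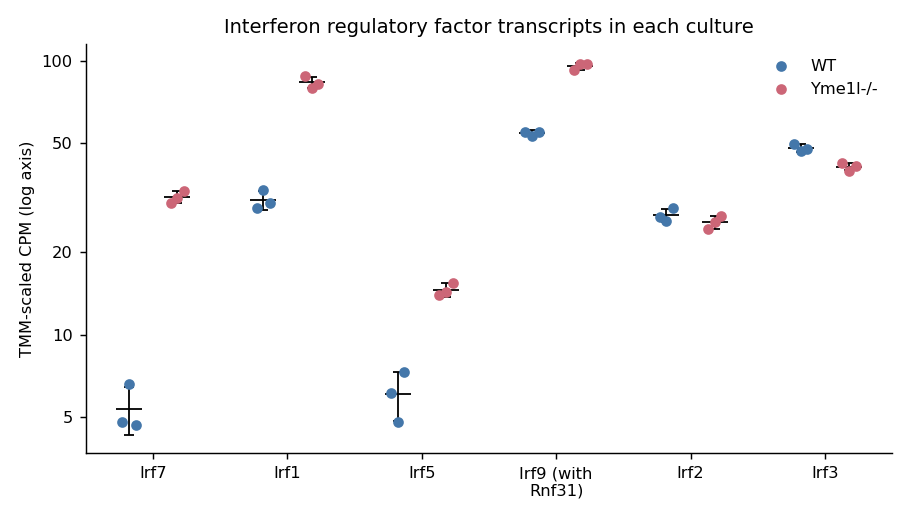
TMM-scaled CPM (log axis) of the 6 tested IRF loci in each of the 3 WT and 3 Yme1l-/- cultures, with the mean and SD as black bars. The Yme1l-/- cultures lie above the WT cultures for Irf7, Irf1, Irf5 and the Irf9 locus, overlap with them for Irf2, and lie below them for Irf3.

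Promoter sequences are shown for Irf1 and Irf7, which had the largest increases, and for Irf2, which was not called. They are 300-base windows from RefSeq on build GRCm38.p6, written 5′ to 3′ along the gene. Windows were found for all 7 factors analysed, 9 in total. Capitals mark matches on either strand to the ISRE core bound by IRFs and ISGF3 (GAAA, any 2 bases and GAAA again), the gamma-activated site (GAS) TTCNNNGAA, or a kB-like motif (GGG, any 2 bases and TTTCC). None of the matches below overlapped another. The Irf1 window is chr11:53769764-53770063 (plus strand), that of Irf2 is chr8:46739495-46739794 (plus strand) and that of Irf7 is chr7:141266375-141266674 (minus strand).
Irf1: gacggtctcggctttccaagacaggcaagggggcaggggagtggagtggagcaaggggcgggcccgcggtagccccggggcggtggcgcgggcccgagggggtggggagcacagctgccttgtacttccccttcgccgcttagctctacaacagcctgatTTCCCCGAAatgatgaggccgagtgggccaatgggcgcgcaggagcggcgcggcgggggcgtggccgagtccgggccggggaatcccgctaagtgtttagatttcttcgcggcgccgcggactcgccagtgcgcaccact
Irf2: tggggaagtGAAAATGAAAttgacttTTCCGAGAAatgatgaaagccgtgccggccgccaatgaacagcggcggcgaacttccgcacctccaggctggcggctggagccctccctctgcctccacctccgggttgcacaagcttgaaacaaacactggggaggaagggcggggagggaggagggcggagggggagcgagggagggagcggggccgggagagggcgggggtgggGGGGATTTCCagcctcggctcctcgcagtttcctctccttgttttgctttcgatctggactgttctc
Irf7: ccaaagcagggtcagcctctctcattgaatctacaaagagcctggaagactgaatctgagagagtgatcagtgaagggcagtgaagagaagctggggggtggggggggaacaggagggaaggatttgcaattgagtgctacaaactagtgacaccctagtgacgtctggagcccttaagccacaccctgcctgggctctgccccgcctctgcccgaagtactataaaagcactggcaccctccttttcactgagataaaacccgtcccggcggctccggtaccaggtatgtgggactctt

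The Irf1 window shown held 1 GAS match, TTCCCCGAA, whose first base lay at position -90 from its annotated start. A second Irf1 window (chr11:53770223-53770522) held no match. The Irf2 window held 1 match to each motif, the ISRE core GAAAATGAAA at -241, the GAS TTCCGAGAA at -224 and the kB-like GGGGATTTCC at -17. The Irf7 window held no match to these letters, nor did those of Irf3, Irf4, Irf5 and Irf9. The Irf9 windows began at 55603735 and 55604329, downstream of the annotated gene start at 55603571. Sequence upstream of that start was not searched for Irf9. Of all 32851 mouse promoter windows of the same length, 3.44% held the ISRE core, 8.3% the GAS motif and 1.63% the kB-like motif. A match describes letters in a window, and factor binding was not measured. Sites of these kinds that depart from the letters given were not searched, so a window without a match can still hold them.

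Irf7 (ENSMUSG00000025498.15, mm10 chromosome 7, 141262706 to 141266481, minus strand) showed the largest change of the family. Its level was 4.80, 6.57 and 4.69 CPM in the WT cultures and 30.2, 31.7 and 33.4 CPM in the Yme1l-/- cultures (replicates 1 to 3). All Yme1l-/- cultures lay well above all WT cultures, and WT replicate 2 was the highest of the WT cultures. The means were 5.35 ± 1.05 and 31.7 ± 1.60 CPM (SD, n = 3). This was a 5.93-fold increase, or a log2 fold change of 2.57 ± 0.11 (SE, edgeR adjusted p = 6.28e-09). Of all tested loci, 2.47% had a higher log2 fold change. Its promoter window, printed above, held none of the motifs searched. At its 3′ end the gene overlaps by 45 bases with Phrf1 on the opposite strand. The authors' locus for Irf7 spans 37698 bases and covers Phrf1, which also has a row of its own.

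Irf1 (ENSMUSG00000018899.16, chromosome 11, 53770014 to 53778374, plus strand) was at 29.1, 33.8 and 30.2 CPM in WT and at 87.96, 80.0 and 82.7 CPM in Yme1l-/- MEFs. The genotypes did not overlap, and WT replicate 2 was again the highest of its group. Irf1 rose from 31.0 ± 2.47 to 83.5 ± 4.05 CPM (SD, n = 3). This was a 2.69-fold increase, or a log2 fold change of 1.43 ± 0.06 (SE, edgeR adjusted p = 6.47e-09).

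Irf5 (ENSMUSG00000029771.12, chromosome 6, 29526625 to 29541871, plus strand) was at 6.13, 4.80 and 7.29 CPM in WT and at 13.9, 14.3 and 15.5 CPM in Yme1l-/- MEFs. It varied more between WT cultures, relative to its mean, than the other tested factors, yet the genotypes did not overlap. Irf5 rose from 6.07 ± 1.25 to 14.5 ± 0.836 CPM (SD, n = 3). Its log2 fold change was 1.26 ± 0.13 (SE, edgeR adjusted p = 6.27e-06). Because IRF5 is usually described in myeloid cells, markers of blood cells were examined beside it. Of 10 such markers, Cd3e, Adgre1 and Tyrobp had no fragment in any library, and Ptprc, the pan-leukocyte gene, had at most 1 fragment in a library. Myeloid markers with few fragments were higher in each Yme1l-/- library than in any WT library. Itgam had 4, 4 and 2 fragments in WT and 9, 14 and 29 in Yme1l-/- cultures, Csf1r had 3, 2 and 5 against 11, 20 and 11, and Lyz2 had 0, 2 and 0 against 12, 8 and 11, and none of them was tested. The summed level of the list was 2.08 to 2.24 CPM in WT and 4.40 to 4.97 CPM in Yme1l-/- cultures. Most of it came from Cd68, a lysosomal protein gene, which was the single tested marker and rose by a log2 fold change of 1.04 ± 0.14 (SE, edgeR adjusted p = 4.83e-05). The part of these markers in the Irf5 difference was not tested. The last 1045 bases of Irf5 overlap Tnpo3 on the opposite strand. The authors' locus for Irf5 spans 83263 bases and covers Tnpo3, which also has a row of its own. The libraries were stranded, but whether counting used strand is not given in the sources used here.

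Irf9 (ENSMUSG00000002325.15, chromosome 14, 55603571 to 55610030, plus strand) could not be measured alone. It overlaps its upstream neighbour Rnf31, which lies on the same strand and encodes the ubiquitin ligase HOIP, by 123 bases, and the authors' assembly had merged both genes into a single locus. The fragments of this locus cannot be divided between the genes. The merged locus was at 55.2, 53.0 and 55.2 CPM in WT and at 92.7, 97.8 and 97.2 CPM in Yme1l-/- MEFs, with no overlap and little spread within either genotype. The log2 fold change was 0.82 ± 0.05 (SE, edgeR adjusted p = 4.2e-08).

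Irf3 (ENSMUSG00000003184.15, chromosome 7, 44997648 to 45002848, plus strand) was at 49.9, 47.0 and 47.5 CPM in WT and at 42.2, 39.6 and 41.4 CPM in Yme1l-/- MEFs. The difference was small, but the highest Yme1l-/- culture was below the lowest WT culture. Irf3 fell by 0.23 on the log2 scale (SE 0.05, edgeR adjusted p = 0.0016), from 48.1 ± 1.54 to 41.1 ± 1.31 CPM (SD, n = 3). It overlaps Bcl2l12 on the opposite strand by 1065 bases, and the authors' locus for Irf3 extends over Bcl2l12 to a span of 15949 bases, while Bcl2l12 has a row of its own.

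Irf2 (ENSMUSG00000031627.9, chromosome 8, 46739732 to 46847458, plus strand) was at 26.8, 26.1 and 28.9 CPM in WT and at 24.2, 25.7 and 27.2 CPM in Yme1l-/- MEFs, and the genotypes overlapped. Its log2 fold change was -0.08, with a 95% confidence interval of -0.23 to 0.06 and an edgeR adjusted p of 0.292.

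The position of the genes was examined because the median log2 fold change of the tested loci differed between chromosomes. The cause of this difference was not tested. Irf7 and Irf3 both lie on chromosome 7, whose 1026 tested loci had a median of -0.01, and they moved in opposite directions. Irf1 lies on chromosome 11 with a median of 0.36 over 1112 loci, and of 19 other tested loci within 1 Mb of it, 16 were higher, 3 were not called and the median was 0.74. With the median of each chromosome removed, the log2 fold change of Irf1 was 1.07. Irf5 lies on chromosome 6 with a median of 0.34, and was called at 0.92 under the same removal, below 2-fold. Around Irf2, on chromosome 8 with a median of -0.32, 16 of 20 tested loci within 1 Mb were lower and 2 were higher, with a median of -0.45. With chromosome medians removed, Irf2 was called higher, at 0.23 (edgeR adjusted p = 0.00924), so that its lack of a call depended on this setting. The surroundings of Irf9 on chromosome 14 had a median of 0.08 over 41 loci.

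**Figure D2:**
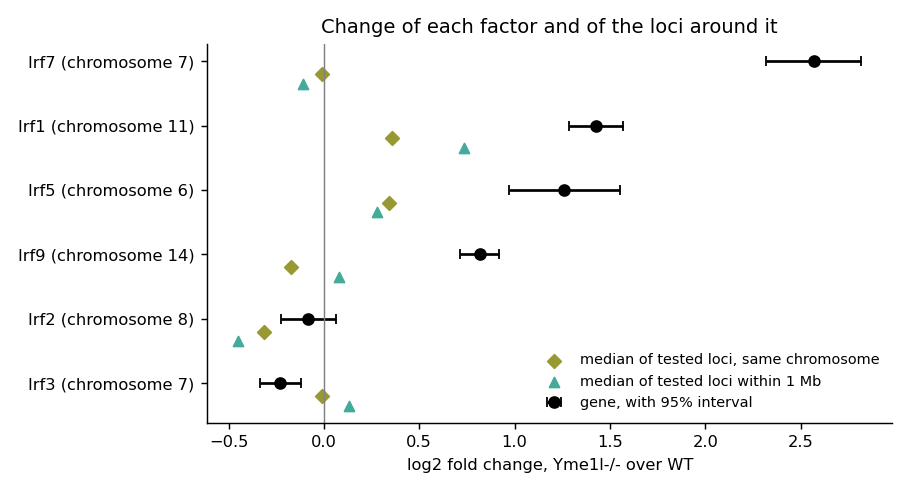
Log2 fold change (Yme1l-/- over WT) of the 6 tested IRF loci with 95% confidence intervals (black), with the median of all tested loci on the same chromosome (diamonds) and within 1 Mb of the locus (triangles). Irf7 stands at 2.57 with its surroundings at -0.11, whereas Irf1 at 1.43 lies among loci with a median of 0.74.

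The 95% intervals separated most of the factors from each other. That of Irf7 (2.32 to 2.82) lay above that of Irf1 (1.29 to 1.57), which overlapped with that of Irf5 (0.97 to 1.55), and the interval of the Irf9 locus (0.71 to 0.92) lay below both. This order did not hold with chromosome medians removed, where Irf1 was at 1.07, the Irf9 locus at 0.99 and Irf5 at 0.92. Ratios within a library do not depend on the scaling of library sizes and were compared for a pair of relatives at a time. With 0.5 added to each count, the log2 ratio of Irf1 to Irf2 was 0.12, 0.38 and 0.06 in WT and 1.86, 1.64 and 1.60 in Yme1l-/- cultures, a 2.86-fold gain of the activator on its competitor. This gain was 1.79-fold with the medians of chromosomes 11 and 8 removed, a setting added after the data had been seen. That of Irf7 to Irf3 was -3.37, -2.84 and -3.34 in WT and -0.48, -0.32 and -0.31 in Yme1l-/- cultures, a 7.01-fold gain of the inducible factor between genes of the same chromosome. For each ratio all Yme1l-/- cultures lay above all WT cultures. The two-sided exact permutation test gave p = 0.1 for each, also after Benjamini-Hochberg adjustment over both ratios, which is the smallest p that 3 against 3 cultures allow.

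Levels of different genes were compared with the FPKM values of the authors' table, a length-normalised level given as 1 combined value per genotype and therefore without error. In WT, Irf3 was at 45.3 FPKM and made up 43.5% of the summed FPKM of the 7 loci, followed by the Irf9 locus (21.2 FPKM), Irf1 (16.3), Irf2 (14.6), Irf5 (3.51), Irf7 (3.26) and Irf4 (0.00425). In Yme1l-/- MEFs, Irf1 had the highest value (43.97 FPKM, 27.4% of the sum), the Irf9 locus (38.3) and Irf3 (37.0) followed, Irf7 was at 19.4 (12.1% of the sum, against 3.13% in WT), Irf2 at 14.7 and Irf5 at 7.25, and Irf4 was listed at 0. Without replicate values it cannot be said which neighbours in these orders differ beyond their spread. For the Irf9 locus the value covers Rnf31 as well.

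**Figure D3:**
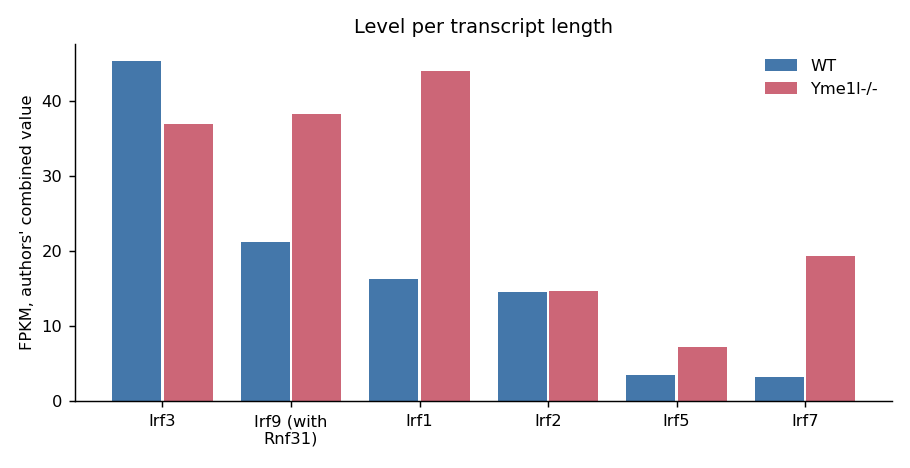
Level per transcript length of 6 IRF loci as the authors' combined FPKM for WT and Yme1l-/- MEFs (bars, starting at 0, with no error available). Irf3 is highest in WT at 45.3 FPKM, and Irf1 is highest in Yme1l-/- MEFs at 43.97 FPKM.

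The genes that act upstream of the factors were compared next. Of 10 adaptors and kinases of nucleic acid sensing and Toll-like receptor signalling, 6 were higher and 2 were lower in Yme1l-/- MEFs, with a median log2 fold change of 0.34. The 8 calls among 10 genes stand beside 67.7% of all tested loci called. Irak4, a kinase of the MyD88 pathway, rose by 1.21 ± 0.11, Tmem173, which encodes STING, by 0.92 ± 0.06, and Mavs, the adaptor of RNA sensing, by 0.57 ± 0.06 (log2 fold change ± SE). The IRF3 kinase genes Tbk1 (0.40 ± 0.05) and Ikbke (0.56 ± 0.13) also rose. Tbk1, on chromosome 10, was at 0.10 and was not called with chromosome medians removed. Irak1 fell by 0.51 (SE 0.05), and Myd88 was not called (-0.05, 95% interval -0.19 to 0.09), but was called higher at 0.31 with chromosome medians removed. The second lower call, Traf3 (-0.15 ± 0.05, SE), was lost without WT replicate 2 or 3 or Yme1l-/- replicate 1 or 3, with adjusted p-values of 0.0526 to 0.0672, and turned into a higher call at 0.29 with chromosome medians removed.

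The products that IRF3 and IRF7 are known for, the type I and III interferon transcripts, were at the floor. Of 18 interferon genes, 14 had no fragment in any library, and none was tested. Ifnb1 had 1 fragment in a single WT library and 0 in all others. The highest count was that of Ifnz, with 4 fragments in a Yme1l-/- library, 1 in each of the other Yme1l-/- libraries and 0 in the WT libraries. No library held more than 1 fragment of any other interferon gene, and counts this low were not compared between the genotypes.

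Among 9 genes for interferon receptors, their kinases and the partners of IRF9, 7 were higher and 2 were lower, so that all 9 were called, against 67.7% of all tested loci. Stat2, whose product is part of ISGF3, rose from 18.2 ± 1.05 to 61.5 ± 6.41 CPM (SD, n = 3). Its log2 fold change was 1.76 ± 0.08 (SE), against 0.82 for the Irf9 locus. The receptor gene Ifnar1 fell by 0.19 (SE 0.05, edgeR adjusted p = 0.00341), whereas the locus of Ifnar2, merged with Gm21970 and Il10rb, was at 0.64 ± 0.05 (SE). Tyk2, a kinase at the same receptor, was at -0.17 ± 0.06 (SE, edgeR adjusted p = 0.036), a call that was lost under DESeq2, at 0.0684, and in 4 of 6 fits that left out a culture (without WT replicate 1 or 3 or Yme1l-/- replicate 1 or 2), and turned into a higher call at 0.19 with chromosome medians removed.

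Genes whose products restrain IRFs moved in both directions, 4 higher and 2 lower of 9, with a median of 0.09. This share of calls was close to that of all tested loci. The corepressor genes Irf2bp2, with a log2 fold change of -1.25 ± 0.09, and Irf2bp1, with -0.44 ± 0.07 (SE), both fell. Irf2bp2 went from 65.0 ± 7.80 to 27.4 ± 2.17 CPM (SD, n = 3) while its binding partner Irf2 was not called. Trim21, a ubiquitin ligase that targets IRFs and is itself an ISG, rose by 1.78 ± 0.15 (SE), and Eif4ebp1, whose product represses translation of Irf7 mRNA, rose by 0.48 ± 0.07 (SE). Of 6 haematopoietic partners of IRF4 and IRF8, Spi1, Batf, Ikzf1 and Ikzf3 had at most 2 fragments in any library. Spib was called higher, with 10, 10 and 5 fragments in WT and 32, 29 and 22 in Yme1l-/- cultures (log2 fold change 1.29 ± 0.40, SE, edgeR adjusted p = 0.0146), and the call was lost without WT replicate 3 or Yme1l-/- replicate 1. Batf3 had 65 to 125 fragments in a library and was not called (0.24 ± 0.14, SE).

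Target genes of the factors were described as 3 lists written from general knowledge, with earlier results of these data known. Each gene was placed in 1 list, although several genes of the IRF3 list (Ifit1, Ifit2, Ifit3, Isg15, Rsad2 and Oasl1) are also known as targets of ISGF3. The counts and medians of the lists therefore depend on this assignment. Of 18 ISGF3 targets, 18 were higher and 17 were at least 2-fold higher, with a median log2 fold change of 2.09. Over all tested loci, 33.6% were higher and 9.10% at least 2-fold higher. The largest increases were those of Ifi44 (5.17 ± 0.18) and Oas3 (4.71 ± 0.22, SE), and the smallest was that of Ifih1, which encodes the RNA sensor MDA5 (0.65 ± 0.09, SE). Of 11 tested IRF1 targets, 10 were higher, against 33.6% of all tested loci, and 1 was not called, with a median of 1.87. The immunoproteasome genes Psmb9 (3.59 ± 0.15) and Psmb8 (3.43 ± 0.08), the peptide transporter gene Tap1 (2.46 ± 0.08) and Nlrc5, the transactivator of MHC class I genes (2.84 ± 0.21, SE), were among them. Cd274, which encodes PD-L1, was not called (-0.17, 95% interval -0.71 to 0.36). Il15 and Casp1 had at most 5 fragments in a library and were not tested.

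The list of direct IRF3 targets had smaller values. Of 8 genes, 3 were higher (Isg15 at 1.33 ± 0.10, Rsad2 at 0.82 ± 0.21 and Cxcl10 at 0.46 ± 0.08, SE) and 1 was lower, with a median of 0.10 (0.0565 without WT replicate 3). The 3 higher calls among 8 were close to the 33.6% of all tested loci called higher, and the 4 calls in all were below the 67.7% called. The lower call was Ifit2, which went from 51.1 ± 2.58 to 33.3 ± 1.29 CPM (SD, n = 3). On the log2 scale this was -0.62 ± 0.06 (SE, edgeR adjusted p = 1.82e-06). Ifit1 was at 0.00 ± 0.08 (SE, 95% interval -0.17 to 0.18), and Oasl1 at -0.07 (95% interval -0.33 to 0.19). Ifit3 was at -0.34 ± 0.18 (SE) and was called lower without WT replicate 1, at -0.51. The median of the list was -0.10 with chromosome medians removed. Members of the Ifit and Oas families can exchange fragments with near-identical copies, so their single values are uncertain. Promoter windows that held the ISRE core were found for 5 of 7 direct IRF3 targets, 6 of 12 ISGF3 targets and 2 of 9 IRF1 targets with a window, against 1079 of 27025 genes in the whole table. The GAS motif was found for 1 of 7, 5 of 12 and 1 of 9 genes of these lists, against 2582 of 27025. The lists were written from known targets of factors that bind such elements, so these shares do not bear on the genotypes.

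**Figure D4:**
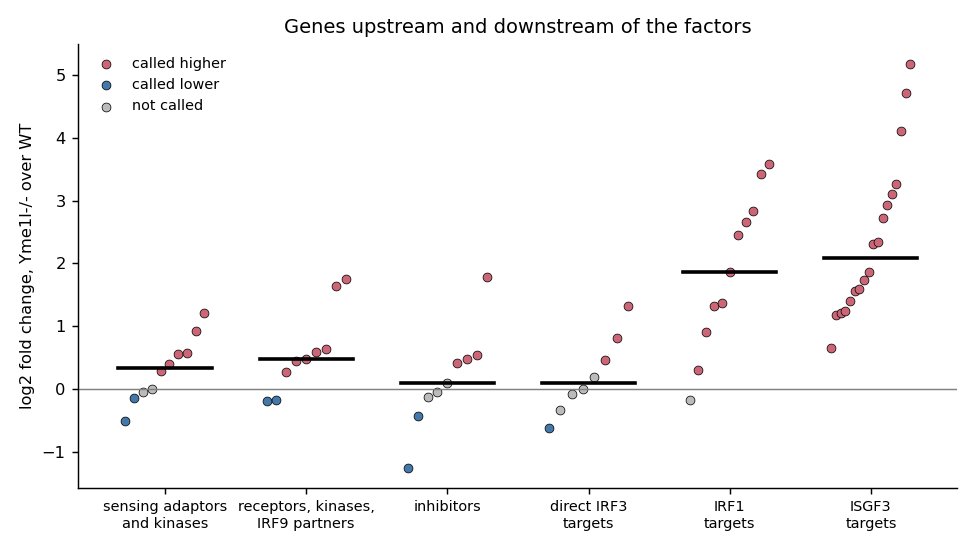
Log2 fold change (Yme1l-/- over WT) of each tested gene in 6 lists of genes upstream or downstream of the IRFs, with list medians as black lines. The medians are 2.09 for ISGF3 targets and 1.87 for IRF1 targets, against 0.10 for direct IRF3 targets, and depend on the assignment of each gene to 1 list.

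The loci whose profile over the 6 libraries came closest to each factor with at least 2-fold change were found by the root mean square difference of log2 CPM after subtraction of the WT mean. Closest to Irf7 were H2-Q6 (0.077), an MHC class I gene with near-identical relatives, Ripk3 (0.0785), a kinase of necroptosis, and Adgrb2 (0.0948). Closest to Irf1 were Fam43a (0.0326), Psme2 (0.0467), which encodes a subunit of the proteasome activator PA28, and Dusp10 (0.0494). Closest to Irf5 were Sh3rf2 (0.103), Irak4 (0.104) and Zfp287 (0.107). Within a difference of 0.2 there were 31 loci for Irf7, 114 for Irf5 and 176 for Irf1.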

How the data were processed

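Paired-end reads from stranded poly(A) libraries were mapped by the authors to mm10 (GRCm38) with HISAT2 2.0.4, transcripts were assembled with StringTie 1.3.3, and genotypes were compared with Cuffdiff 2.2.1 (versions from the submitters' processing notes). The deposited count table holds raw fragment counts per assembled locus. The treatment of multi-mapping fragments in counting is not given in the sources used here. The deposited comparison table holds FPKM as 1 combined value per genotype, which were used as levels, and its fold changes and p-values were not used.

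The analysis of counts used edgeR 4.0.16 (R 4.3.3). Loci were kept with filterByExpr (minimum count 10), library sizes were scaled with TMM, and genotypes were compared with the quasi-likelihood test (robust, two-sided, no covariates), and p-values were adjusted over every tested locus by the Benjamini-Hochberg procedure. Alternatives were RLE and upper-quartile scaling, DESeq2 1.42.0, other filters, the replicate block, removal of chromosome medians and leaving out each culture. In the analyses by chromosome, 45 loci without a single position were left out. Gene positions are from GENCODE on GRCm38. Floors cover counting error only, since PCR copies were not identified, and 95% intervals come from the edgeR fit and include the spread between cultures. The paper describes the cultures as independent, and p-values rest on the spread between them.

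The members and gene lists were chosen with earlier results of these data known. Some genes of the lists are counted but not reported here by name. Named were the members, genes of the lists, Yme1l1, and the 3 loci with the profile closest to each member called with at least 2-fold change. Genes that overlap a member, or share the locus of a member or list gene, were named as well.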

Additional observations from a re-analysis of the deposited data

How the results depend on the processing

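Over 13 alternatives, 4 or 5 IRF loci were called higher and 1 was called lower, and the log2 fold changes ranged from 2.48 to 2.74 for Irf7, 1.07 to 1.49 for Irf1, 0.92 to 1.41 for Irf5, 0.79 to 0.99 for the Irf9 locus and -0.25 to -0.17 for Irf3, all called under each alternative. Removal of chromosome medians reversed Irf2 to 0.23 and moved the change of the log2 ratio of Irf1 to Irf2 from 1.51 to 0.84. It moved the list medians to 0.30 for sensing adaptors and kinases, 0.37 for receptors, kinases and IRF9 partners, 0.11 for inhibitors, 1.70 for IRF1 targets and -0.10 for direct IRF3 targets, and the lower calls of the inhibitors to 4 (with Foxo3 and Eif4ebp2 at -0.34 and -0.21), those of direct IRF3 targets to 2, and those of the first pair of lists to 1 each. The cause was not tested.

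Upper-quartile scaling moved the median of all loci to 0.06, the share of calls that were higher from 49.6% to 55.1%, and the medians to 0.40 (sensing), 0.53 (receptors) and 0.15 (inhibitors), with 1 lower call left in each of the first pair. Under this scaling the median of direct IRF3 targets was 0.16 in place of 0.10, with 4 higher calls in place of 3 (Ccl5 added). Eif4ebp2 was also called higher. DESeq2 and the fit without a filter left 1 lower call among receptors. Without a filter the median of IRF1 targets was 1.36, since more loci were tested, and with at least 10 counts in every sample those of ISGF3 targets and of partners of IRF4 and IRF8 were 1.87 and 0.24, since fewer were. That filter left 0 higher calls among the partners, against 1 as reported (Spib) and 2 with chromosome medians removed.

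Deviations of same-numbered cultures correlated at 0.144, -0.0939 and 0.048. So few cultures cannot decide whether replicate numbers pair them. With the replicate block 9794 loci were called in place of 9387, and 2 direct IRF3 targets were called lower in place of 1 (Ifit3 added). Under the block Ccl5 and Eif4ebp2 were also called higher, and the call of no IRF locus changed.

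With each of the 6 cultures left out in turn, lower calls numbered 1 to 2 for sensing, 1 to 2 for receptors and 1 to 2 for direct IRF3 targets (2 without WT replicate 1). The median of direct IRF3 targets went from 0.056 (without WT replicate 3) to 0.142, that of inhibitors from 0.079 to 0.105, and that of ISGF3 targets from 2.05 to 2.43, the highest value being that without WT replicate 2. The Spib call was lost without WT replicate 3 or Yme1l-/- replicate 1. Depth limits Irf4 and the interferon genes, where floors of 3 fragments apply.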

Other observations

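WT replicate 2 was often the highest WT culture for IRF1 targets and ISGF3 targets. Of the 6 tested IRF loci, 2 (Irf1 and Irf7) were highest there within WT, and so were 11 of the 11 tested IRF1 targets and 12 of the 18 ISGF3 targets, whereas that culture was the highest WT culture for 31.8% of all tested loci and for 3 of the 8 direct IRF3 targets. Gbp2 had 107 fragments in that library against 44 and 39 in the other WT libraries, Nlrc5 had 152 against 84 and 82, and Mx2 had 27 against 7 and 7. The same library also stood apart for other genes: the fibroblast gene Col3a1 had 9860 fragments there against 2858 and 2974, and Pdgfra had 596 against 329 and 405, although WT replicate 2 was highest for 3 of 9 tested fibroblast markers. The levels of Gbp2, Nlrc5 and Mx2 stayed below those of the Yme1l-/- cultures. Without WT replicate 2 the log2 fold change of Irf1 was 1.49 in place of 1.43, and that of Irf7 was 2.74 in place of 2.57. The cause was not tested.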
